A study of Homo sapiens with 12 samples.

Results

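Copying of the genome in S phase depends on a set of proteins that license origins, open the DNA, copy it and guard the forks, and 51 genes of this set were followed here among the 36486 genes of the deposited count table. The genes were taken by name, by a rule that uses no measured value, although the list was drawn up with earlier results of these data known. Each has 1 Ensembl identifier in the table, and all of them passed the filter on low counts in both cell lines. They were divided into 5 roles: origin licensing (15 genes), helicase activation and firing (9), polymerases and primase (8), clamp, clamp loader and lagging strand (14), and fork protection and checkpoint (5).

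RNA-seq was available for 12 libraries of established cell lines. TOV-112D is an ovarian cancer line whose p53 carries the R175H substitution, and 2 libraries each were made after 3 h with the vehicle DMSO, UCI-1001 or UCI-1014. The cells labelled Saos-2, an osteosarcoma line, were the p53-null parental cells and cells engineered to express p53-WT when induced, with 3 libraries of each and 16 h of induction in the labels of both. In the methods of the study, p53 is driven from a doxycycline-inducible construct, so the p53-WT libraries hold ectopic p53 in a line that otherwise lacks it. Whether the p53-WT cells are 1 clone or a pool, and the dose of UCI-1014, are not given in the sources used here. The labels do not say that libraries of a group came from separate cultures, so the p-values measure the spread between these libraries, which may be technical.

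In G1, the origin recognition complex (ORC), CDC6 and CDT1 load rings of MCM2 to MCM7 onto DNA, which licenses an origin. The kinase of CDC7 and DBF4, together with CDC45, the GINS complex and MCM10, then turns the ring into an active helicase. Primase and the polymerases alpha, delta and epsilon copy the strands with the sliding clamp PCNA, while RPA coats single strands and claspin (CLSPN), TOPBP1, TIMELESS and TIPIN guard stalled forks. Many of these genes are known targets of E2F transcription factors, which act as cells move from G1 to S phase, and p53 is known to raise CDKN1A, an inhibitor of the kinases that drive S phase entry.

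Library totals ranged from 17762027 to 24629558 counts, and all levels below are CPM, counts relative to the library size after TMM scaling, within each cell line, so they are not compared between the lines. As a check of the labels, CDKN1A rose from between 56.9 and 79.1 CPM to between 7921 and 9039 CPM with p53-WT. In TOV-112D cells it lay at 7.78 and 9.20 CPM with DMSO, at 25.3 and 27.9 CPM with UCI-1001 and at 97.7 and 99.6 CPM with UCI-1014. Of 10 osteosarcoma markers, RUNX2 and SPP1 had a mean of at least 1 CPM in both groups labelled Saos-2, but SP7 had 0 counts in all 6 libraries and ALPL at most 0.532 CPM, while the keratin KRT18 lay between 402 and 559 CPM. Of 11 markers of ovarian epithelial cancer, EPCAM, CDH1 and WT1 had a mean of at least 1 CPM in TOV-112D cells, and KRT18 had 0 counts in all 6 libraries. The markers thus went against the labels in part. The ovarian list summed to between 4.43 and 7.32 CPM in TOV-112D libraries and to between 725 and 1097 CPM in those labelled Saos-2. There KRT7, KRT8, PAX8 and WT1 also had a mean of at least 1 CPM. Most of the sum came from 2 keratins, KRT18 and KRT8. KRT8 had a mean of 202 CPM in p53-null and 492 CPM in p53-WT libraries. The osteosarcoma list summed to between 65.0 and 70.8 CPM in TOV-112D libraries and to between 59.0 and 80.2 CPM in those labelled Saos-2. The names of the lines are therefore used here as labels. The summed level of 7 genes of blood, endothelial and liver cells was at most 3.61 CPM in any library. The part of these marker levels in the results below was not tested.

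The sequences just upstream of the transcription start were examined because the promoters of replication genes are known for E2F-type motifs. RefSeq promoter entries (GRCh38.p14) were matched by symbol for 43 of the 51 genes. An E2F-type motif, spelled TTCGCGC or TTGGCGC, with TTCCCGC or TTGCCGC as further forms, on either strand, was found in the 250 upstream bases of 21 of the 43 (48.84%), against 11.02% of all 27305 promoters in the table. The letters CCAAT stood in 25 (58.14%), against 33.04% of all promoters. The cell cycle homology region (TTTGAA or TTCGAA) stood in 1 (2.33%), against 14.59%, and a p53 element of 2 half-sites with at most 2 mismatches and a spacer of at most 13 bases in 2 (4.65%), against 6.56%. The single match of the cell cycle homology region lay in the MCM6 promoter, and the p53 elements lay in those of MCM6 and CDC7. These matches are descriptions of letters, not binding sites. The promoters of the whole table were not matched to the 43 in base composition, and the part of base composition in these shares was not tested.

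**Figure D1:**
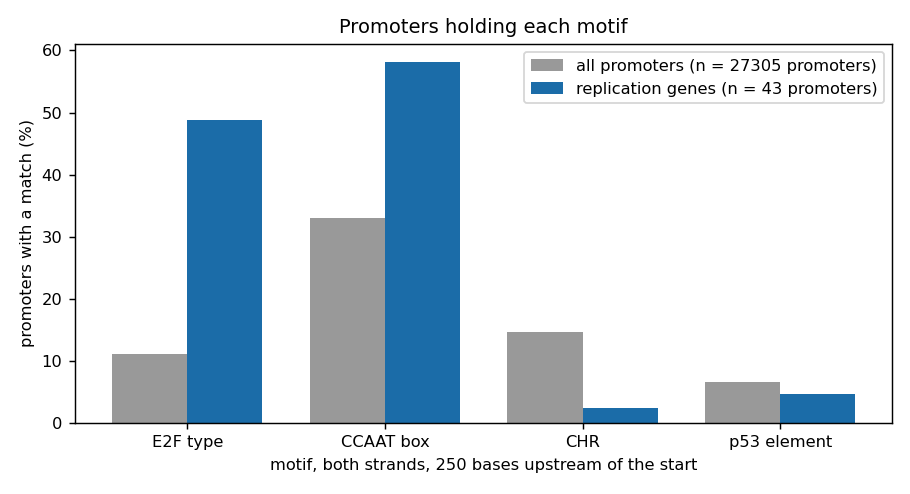
Bars give the percentage of promoters with at least 1 match, on either strand, in the 250 bases upstream of the start, for the 43 replication genes with a promoter entry (blue) and for all 27305 promoters (grey). The E2F-type motif stood in 48.84% and 11.02%, and CCAAT in 58.14% and 33.04%.

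The promoters of 5 genes with large or opposite changes under p53-WT are shown, to set the letters of a gene that rose (PCNA) beside those of genes that fell. Capitals mark the E2F-type letters, with TTGGCGG as well as the letters TTCGCGG, which were added after the first matches were seen and raise the share to 60.47% of these genes and 14.87% of all promoters. All are written 5′ to 3′ on the strand of the gene and end next to its RefSeq start, except PCNA. There 4 annotated exon bases next to the RefSeq start were cut, which leaves 246 bases. MCM10 lies at chr10:13161308-13161557 (plus strand), CDC6 at chr17:40287629-40287878 (plus), CLSPN at chr1:35769979-35770228 (minus), CHAF1A at chr19:4402390-4402639 (plus) and PCNA at chr20:5126627-5126872 (minus).
MCM10: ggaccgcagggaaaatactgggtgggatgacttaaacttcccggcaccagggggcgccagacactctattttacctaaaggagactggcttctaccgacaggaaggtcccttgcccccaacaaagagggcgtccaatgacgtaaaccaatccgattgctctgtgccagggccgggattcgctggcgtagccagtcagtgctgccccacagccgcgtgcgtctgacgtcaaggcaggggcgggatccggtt
CDC6: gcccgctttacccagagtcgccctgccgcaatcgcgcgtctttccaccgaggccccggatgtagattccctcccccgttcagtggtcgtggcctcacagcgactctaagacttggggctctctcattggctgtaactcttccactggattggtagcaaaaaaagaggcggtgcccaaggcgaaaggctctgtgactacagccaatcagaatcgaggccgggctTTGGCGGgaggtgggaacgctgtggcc
CLSPN: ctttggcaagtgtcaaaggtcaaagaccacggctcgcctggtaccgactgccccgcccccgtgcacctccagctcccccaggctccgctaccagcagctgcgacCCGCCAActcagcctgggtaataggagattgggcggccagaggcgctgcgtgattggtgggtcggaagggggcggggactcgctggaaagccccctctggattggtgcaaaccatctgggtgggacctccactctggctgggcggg
CHAF1A: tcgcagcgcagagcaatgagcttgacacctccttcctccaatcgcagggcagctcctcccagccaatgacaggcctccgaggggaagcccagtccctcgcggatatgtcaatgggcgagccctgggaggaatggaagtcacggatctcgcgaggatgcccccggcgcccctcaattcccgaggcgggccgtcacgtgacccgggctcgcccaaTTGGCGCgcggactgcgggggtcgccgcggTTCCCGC
PCNA: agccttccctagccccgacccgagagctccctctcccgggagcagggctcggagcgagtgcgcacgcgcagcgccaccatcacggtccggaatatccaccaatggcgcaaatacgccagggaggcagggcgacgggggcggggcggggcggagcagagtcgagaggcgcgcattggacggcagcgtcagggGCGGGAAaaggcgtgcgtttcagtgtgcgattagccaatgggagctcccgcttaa
MCM10 has no marked letters and 2 CCAAT boxes. CDC6 carries TTGGCGG 27 bases before the start, and CLSPN carries the same letters on the other strand, 146 bases before it. CHAF1A carries TTGGCGC at 37 bases and TTCCCGC at 7 bases. PCNA carries TTCCCGC on the other strand, 59 bases before the RefSeq start, and 3 CCAAT boxes. This distance includes the 4 exon bases that are not printed. Thus the promoters of genes that fell include ones with and without the marked letters, and the promoters of both genes that rose, PCNA and LIG1, hold an E2F-type match.

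With p53-WT, nearly the whole set was lower. Of the 51 genes, 47 fell, PCNA and LIG1 rose, and GMNN and GINS4 did not pass the test at an adjusted p under 0.05 (edgeR's quasi-likelihood test, Benjamini-Hochberg adjustment over 14275 genes). Among all genes tested, 66.5% were called, with 33% lower. The median log2 fold change over the 51 genes was -2.10, against -0.01 over all genes, and 40 genes fell by over 1, 29 by over 2 and 9 by over 3 on the log2 scale. The median lay so low that only 2.60% of all genes fell further. The summed level of the 51 genes was 6003, 5689 and 5760 CPM in the p53-null libraries and 2041, 2009 and 1944 CPM in the p53-WT libraries, a ratio of 2.91. These are bulk samples, in which fewer cells in S phase and less RNA per cell cannot be told apart.

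**Figure D2:**
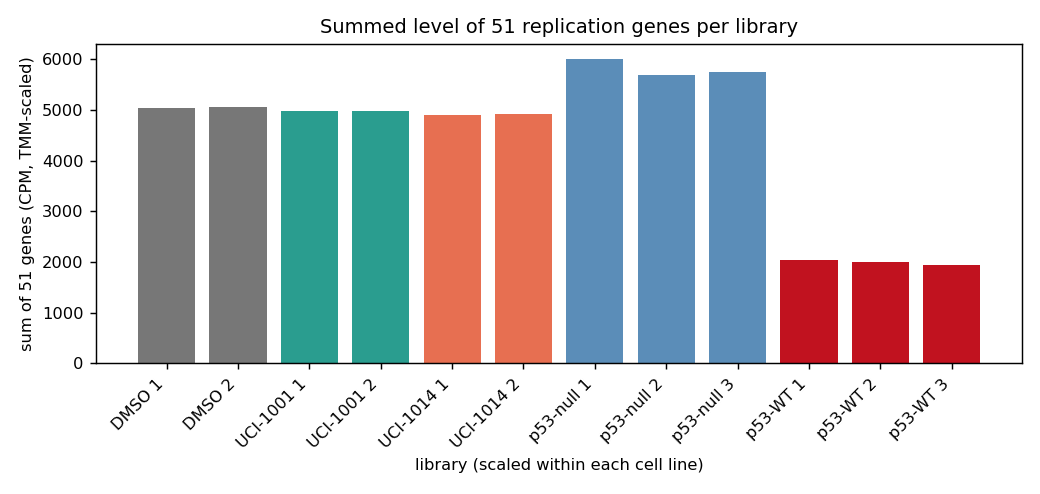
Bars give the summed TMM-scaled CPM of the 51 genes in each of the 12 libraries, colored by group. The p53-WT libraries lie between 1944 and 2041 CPM and the p53-null libraries between 5689 and 6003 CPM, while the TOV-112D libraries lie between 4904 and 5063 CPM.

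Among origin licensing genes, 14 of 15 fell, with a median log2 fold change of -2.07. DTL, the substrate receptor of the ubiquitin ligase that removes CDT1 in S phase, was at 73.0, 74.8 and 72.8 CPM in p53-null and at 4.83, 5.48 and 5.55 CPM in p53-WT libraries. Its log2 fold change was -3.80 (SE 0.12, edgeR adjusted p = 1.2e-09). CDC6, which helps load the MCM ring, was at 109, 99.7 and 98.7 CPM and then at 7.97, 8.46 and 6.17 CPM, a log2 fold change of -3.77 (SE 0.14). All p53-WT libraries lay far below all p53-null libraries for both genes.

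The loading factors and ring subunits did not fall by the same amount. Within the ORC, ORC1 fell most, by 3.20 on the log2 scale, followed by ORC6 (-1.81), ORC3 (-1.10), ORC2 (-0.85) and ORC5 (-0.84). Within the ring, MCM2 (-3.42) and MCM3 (-3.04) fell most, MCM6 (-2.75), MCM7 (-2.58) and MCM4 (-2.07) lay between, and MCM5 fell by 1.10 on the log2 scale. CDT1 fell by 1.53 on the log2 scale. Its inhibitor geminin (GMNN) was at 122, 88.8 and 90.7 CPM in p53-null and at 97.8, 94.7 and 93.6 CPM in p53-WT libraries, so that the groups overlapped. Its log2 fold change was -0.08 (SE 0.13, edgeR adjusted p = 0.62), and without p53-null replicate 1 it was 0.08. The GMNN transcripts were not alike. GMNN-201 was at 64.2, 51.6 and 52.6 CPM in p53-null and 54.6, 47.5 and 50.7 CPM in p53-WT, whereas the minor GMNN-206 was at 0.918, 0.600 and 1.24 CPM and then at 6.25, 5.69 and 5.15 CPM, values split between transcripts by kallisto and not tested.

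Of the 9 genes of helicase activation and firing, 8 fell, with a median log2 fold change of -2.61. MCM10, which activates the helicase, was at 66.6, 60.7 and 66.4 CPM in p53-null and at 3.59, 3.53 and 3.22 CPM in p53-WT libraries. Its log2 fold change of -4.23 (SE 0.12, edgeR adjusted p = 9.9e-10) was the second largest fall of the 51 genes. GINS3, a subunit of the GINS complex, was at 46.7, 39.7 and 36.6 CPM and then at 6.78, 5.38 and 5.33 CPM, a log2 fold change of -2.81 (SE 0.15). The kinase CDC7 (-2.61) and its activator DBF4 (-2.31), CDC45 (-2.58) and MCM8 (-2.72) fell as well. The GINS complex was split, since GINS1 (-2.17), GINS2 (-2.69) and GINS3 fell while GINS4 was at 39.1, 43.4 and 41.1 CPM in p53-null and 35.9, 43.3 and 42.3 CPM in p53-WT libraries (log2 fold change -0.03, SE 0.11, edgeR adjusted p = 0.85). GINS4 shares 21.02% of its exon bases with a long noncoding RNA on the opposite strand, and MCM8 shares 33.34% with another coding gene. Reads of these pairs may not be told apart. The same limit holds for MCM2 (23.61%), TIPIN (21.14%), POLA2 (16.76%), PRIM1 (10.94%) and GINS3 (10.92%), each given as the share with a single other gene.

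All 8 genes of the polymerases and primase fell, with a median log2 fold change of -1.99. PRIM1, the catalytic subunit of primase, was at 75.1, 62.7 and 64.2 CPM in p53-null and at 9.08, 12.05 and 9.65 CPM in p53-WT libraries, a log2 fold change of -2.72 (SE 0.14, edgeR adjusted p = 2.6e-08). POLE2, the second subunit of polymerase epsilon, was at 27.6, 22.0 and 24.3 CPM and then at 4.08, 4.63 and 3.83 CPM, a log2 fold change of -2.56 (SE 0.14). The groups were apart for both genes. POLD3, an accessory subunit of polymerase delta, fell by 2.43, POLA1 by 2.13, the catalytic subunits POLE and POLD1 by 1.86 and 1.79, and PRIM2 by 1.78 on the log2 scale. POLA2 fell least, by 0.90 on the log2 scale.

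The clamp, clamp loader and lagging strand genes held both risers. PCNA, the sliding clamp (ENSG00000132646, GRCh38 chromosome 20, 5114953 to 5126626, minus strand), was at 249, 212 and 209 CPM in p53-null and at 374, 359 and 346 CPM in p53-WT libraries. All p53-WT libraries lay above all p53-null libraries, and its log2 fold change was 0.69 (SE 0.11, edgeR adjusted p = 1.8e-04). LIG1, the ligase that joins Okazaki fragments (ENSG00000105486, chromosome 19, 48115445 to 48170603, minus strand), was at 49.4, 56.7 and 55.8 CPM and then at 97.1, 87.7 and 88.6 CPM, a log2 fold change of 0.76 (SE 0.11, edgeR adjusted p = 8.0e-05). Both rises appeared in the main coding transcript, with PCNA-201 at 242, 196 and 198 CPM and then at 368, 350 and 337 CPM, and LIG1-201 at 38.8, 39.4 and 41.6 CPM and then at 64.1, 66.6 and 61.2 CPM. PCNA shares no exon bases with another gene and LIG1 shares 3.75%, and the transcripts of LIG1 did not add up to its deposited gene count within 1 count.

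The other 12 genes of this role fell. FEN1, the flap nuclease that trims Okazaki fragments beside LIG1, was at 134, 140.2 and 144 CPM in p53-null and at 18.6, 16.4 and 17.1 CPM in p53-WT libraries, a log2 fold change of -3.004 (SE 0.11, edgeR adjusted p = 2.7e-09). CHAF1A, the large subunit of the chromatin assembly factor that deposits histones behind the fork, was at 63.4, 80.1 and 75.5 CPM and then at 9.88, 10.2 and 10.3 CPM, a log2 fold change of -2.85 (SE 0.12). Its partner CHAF1B fell by 0.87 on the log2 scale. Within the clamp loader, RFC3 fell by 2.82, RFC2 by 2.05, RFC5 by 2.03 and RFC4 by 1.37 on the log2 scale, and the large subunit RFC1 by 0.58. Within the single-strand binding complex, RPA2 fell by 1.75, RPA3 by 0.59 and RPA1 by 0.36 on the log2 scale. DNA2, a second flap nuclease, fell by 2.27.

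All 5 genes of fork protection and checkpoint fell. FAM111B, a gene of a protease family, was at 54.8, 55.7 and 53.4 CPM in p53-null and at 1.46, 2.29 and 1.94 CPM in p53-WT libraries. Its log2 fold change of -4.85 (SE 0.16, edgeR adjusted p = 1.4e-09) was the largest of the 51 genes. CLSPN, the adaptor that lets ATR activate CHK1, was at 65.6, 85.9 and 82.7 CPM and then at 5.40, 6.47 and 5.90 CPM, a log2 fold change of -3.72 (SE 0.15). TOPBP1 fell by 2.10, TIMELESS by 1.69 and TIPIN by 1.07 on the log2 scale. The call of all 49 genes was kept without any single Saos-2 library.

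**Figure D3:**
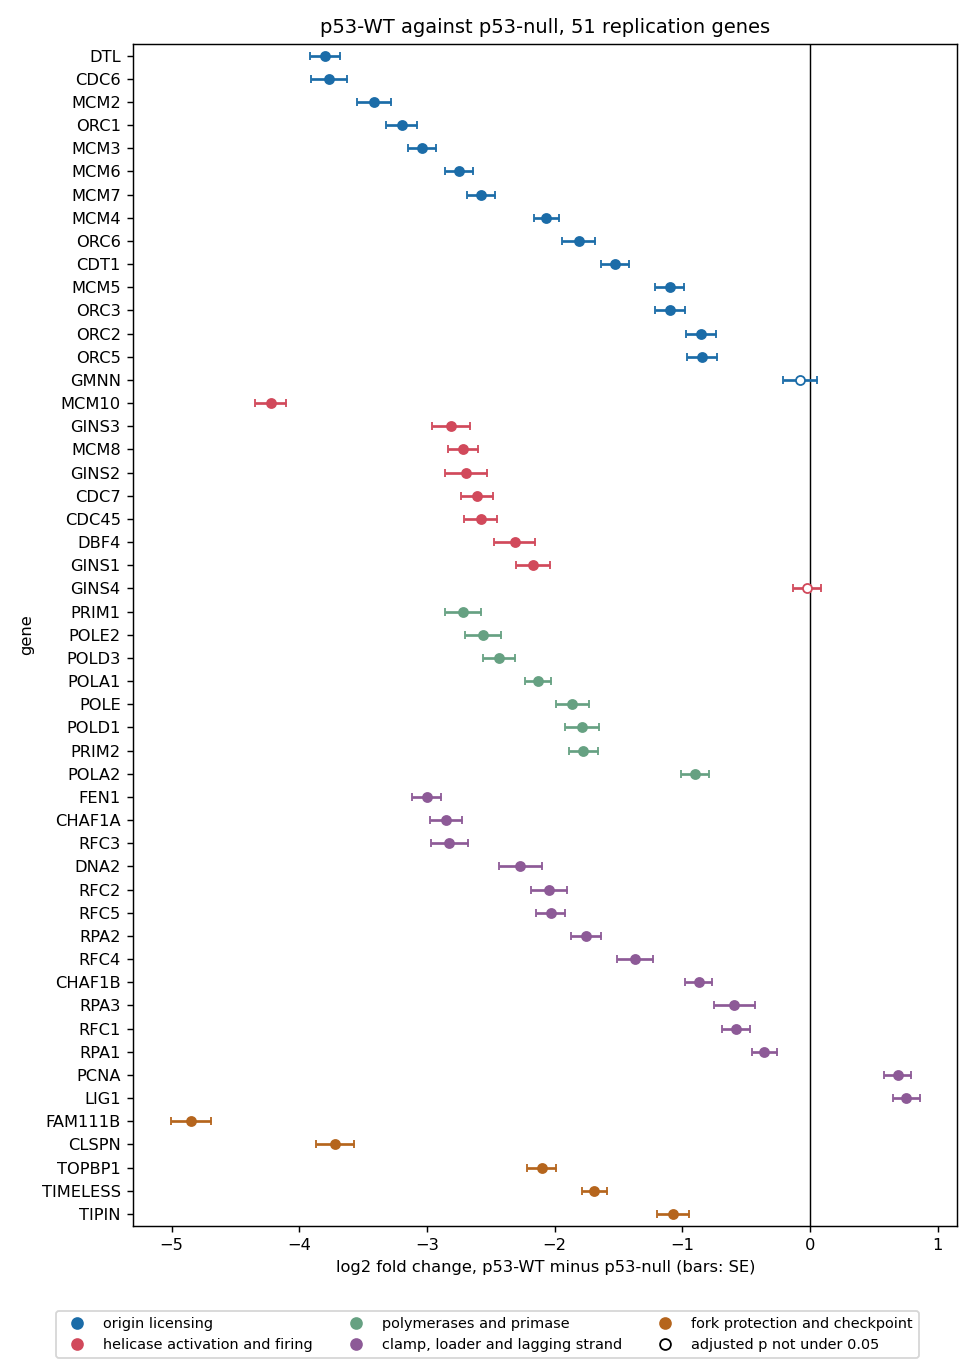
Points give the log2 fold change (p53-WT minus p53-null, 3 libraries each) of the 51 genes, with bars of 1 SE, colored by role, and open points did not pass an adjusted p under 0.05. PCNA (0.69) and LIG1 (0.76) stand to the right of 0, GMNN and GINS4 near 0, and the other 47 to the left, down to FAM111B at -4.85.

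Per length of transcript, PCNA and MCM7 were among the highest of the set. Levels between genes were compared in TPM over 41 genes, those for which the transcripts added up to the gene count of the table within 1 count. Among these 41, PCNA had the highest level in all 5 groups, from 206 ± 5.62 TPM (SD, n = 2) with UCI-1014 to 368 ± 31.5 TPM (SD, n = 3) with p53-WT. MCM7, one of the 10 genes left out because their transcripts did not add up in this way, was listed above PCNA in p53-null libraries, at 419, 453 and 467 TPM against 272, 269.6 and 255 TPM, and with UCI-1014, at 205 and 213 TPM against 202 and 209.8 TPM. In the other groups MCM7 was listed below PCNA. In p53-null libraries, PCNA was followed among the 41 genes by RPA3, at 157 ± 25.3 TPM (SD, n = 3), and GMNN, at 143 ± 15.2 TPM (SD, n = 3), which differed by less than their spread. With p53-WT, GMNN followed PCNA at 129 ± 9.21 TPM (SD, n = 3), and MCM10 and FAM111B were lowest at 1.11 ± 0.03 and 0.710 ± 0.213 TPM (SD, n = 3). The median level over the 41 genes was 50.8 TPM in p53-null and 11.4 TPM in p53-WT libraries.

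With the compounds in TOV-112D cells, changes of the set were small and went both ways. UCI-1001 lowered 5 of the 51 genes (CDT1, POLD3, PCNA, CHAF1A and CLSPN) and raised 0 (edgeR, over 14177 genes). Among all genes tested, 15.7% were called, with 6.36% lower and 9.39% higher. UCI-1014 lowered 13 genes and raised 9, where 47.1% of all genes were called, with 23.4% lower and 23.7% higher. The shares of the 51 genes called were 9.80% and 43.1%, and their difference from all genes was not tested. The median log2 fold change of the 51 genes was 0.02 with each compound, against 0.00 and -0.02 over all genes. Their summed level was 5035 and 5063 CPM with DMSO, 4981 and 4974 CPM with UCI-1001 and 4904 and 4925 CPM with UCI-1014.

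The balance of rises and falls with UCI-1014 depended on the scaling. With total counts in place of TMM factors, 2 of the genes were higher and 24 lower with UCI-1014, while the median of all genes shifted from -0.02 to -0.15 on the log2 scale. Relative to that median, the median of the 51 genes, -0.12, was again close to that of all genes. With all 12 libraries in a single fit, 0 genes were called with UCI-1001 and 5 with UCI-1014. Without DMSO replicate 1, the counts were 2 called genes for UCI-1001 and 13 for UCI-1014. Without DMSO replicate 2 or UCI-1001 replicate 2, UCI-1001 had 1 and 2, and POLD3 was called in each of these cases. The 46 genes not called with UCI-1001 lay between DNA2 (-0.16) and PRIM2 (0.25), and the 29 not called with UCI-1014 between GMNN (-0.13) and POLA2 (0.16) on the log2 scale. Each compound was set against the same pair of DMSO libraries, so their values are given side by side and not as independent evidence.

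**Figure D4:**
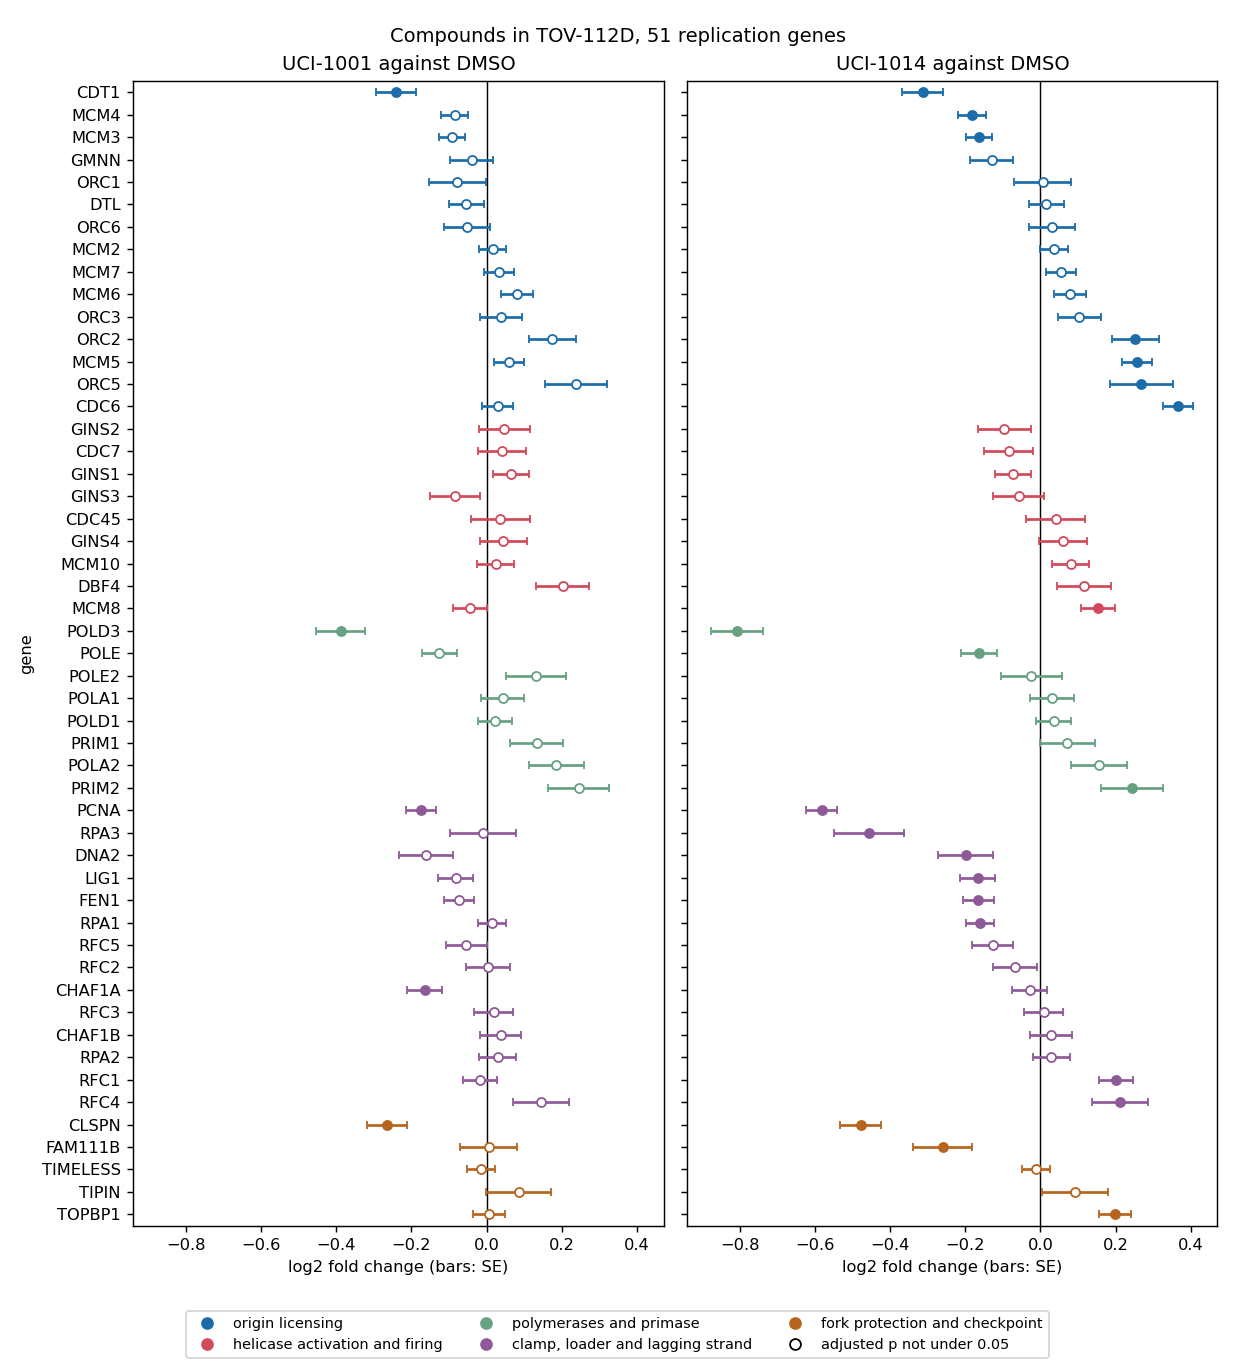
Points give the log2 fold change of the 51 genes with UCI-1001 (left) and UCI-1014 (right) against DMSO, with 2 libraries in each group, bars of 1 SE, colors by role and open points where the adjusted p was not under 0.05. POLD3 stands lowest in both panels, at -0.39 and -0.81, and CDC6 highest among called genes, at 0.37 with UCI-1014.

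POLD3 (ENSG00000077514, chromosome 11, 74493851 to 74669117, plus strand) changed most with both compounds. It was at 51.7 and 55.7 CPM with DMSO, at 42.2 and 39.7 CPM with UCI-1001 and at 31.2 and 30.2 CPM with UCI-1014. The 3 groups did not overlap. On the log2 scale it fell by 0.39 with UCI-1001 (SE 0.06, edgeR adjusted p = 8.9e-04) and by 0.81 with UCI-1014 (SE 0.07, edgeR adjusted p = 2.3e-07). No other polymerase gene passed the test with UCI-1001. With UCI-1014, POLE fell from 179 and 188 CPM to 170 and 158 CPM (log2 fold change -0.16, SE 0.05). PRIM2 rose from 29.1 and 29.5 CPM to 37.6 and 32.0 CPM with UCI-1014 (log2 fold change 0.24, SE 0.08). The POLE call was kept in 8 of 11 alternative fits and the PRIM2 call in 7 of 13.

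PCNA, which rose with p53-WT, fell with both compounds. It was at 228 and 229 CPM with DMSO, at 205 and 199.8 CPM with UCI-1001 and at 148 and 157 CPM with UCI-1014. The groups were again apart, with log2 fold changes of -0.17 (SE 0.04, edgeR adjusted p = 0.0087) and -0.58 (SE 0.04, edgeR adjusted p = 3.4e-08). LIG1, at 99.5 and 96.6 CPM with DMSO, was at 93.1 and 92.2 CPM with UCI-1001, where it was not called, and at 85.9 and 88.8 CPM with UCI-1014, a log2 fold change of -0.17 (SE 0.05, edgeR adjusted p = 0.0086). Both genes that rose with p53-WT at 16 h in one cell line were therefore lower with UCI-1014 at 3 h in the other, a setting in which the cells, the p53 protein and the time all differ.

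Other clamp and lagging strand genes moved less than PCNA on the log2 scale. RPA3, the smallest RPA subunit, was at 19.9 and 17.7 CPM with DMSO, at 18.3 and 19.1 CPM with UCI-1001 and at 13.8 and 13.6 CPM with UCI-1014, a fall of 0.46 on the log2 scale (SE 0.09, edgeR adjusted p = 0.0010). RPA1, FEN1 and DNA2 fell by 0.16, 0.17 and 0.20 on the log2 scale with UCI-1014. The loader subunits RFC1 and RFC4 rose by 0.20 and 0.21 on the log2 scale with UCI-1014. RFC1 was at 88.6 and 87.3 CPM with DMSO and at 101 and 102 CPM with UCI-1014. RFC4 was at 33.4 and 34.8 CPM and then at 36.7 and 42.1 CPM. The RFC1 call was kept in 11 of 13 alternative fits and the RFC4 call in 6 of 13. CHAF1A was called with UCI-1001 alone. It was at 104 and 107 CPM with DMSO, at 96.3 and 92.4 CPM with UCI-1001 and at 102 and 106 CPM with UCI-1014, and the difference between the compounds passed the test (log2 difference 0.14, adjusted p = 0.039, edgeR). This difference lost the threshold in 8 of 14 alternatives, with values between 0.02 and 0.18, and the UCI-1001 call in 7 of 13, with values between -0.20 and -0.08.

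The licensing factors CDT1 and CDC6 moved apart with UCI-1014. CDT1 was at 93.6 and 94.5 CPM with DMSO, at 81.6 and 77.6 CPM with UCI-1001 and at 72.1 and 79.1 CPM with UCI-1014, with log2 fold changes of -0.24 (SE 0.05, edgeR adjusted p = 0.0070) and -0.31 (SE 0.05, edgeR adjusted p = 2.7e-04). CDC6 was at 131 and 133 CPM with DMSO, at 132 and 138 CPM with UCI-1001 and at 171 and 169.7 CPM with UCI-1014. The UCI-1014 libraries stood above the others, a log2 fold change of 0.37 (SE 0.04, edgeR adjusted p = 4.0e-06), whereas this gene fell by 3.77 on the log2 scale with p53-WT in the other line. However, the transcripts of CDC6 did not add up to its deposited gene count within 1 count. In TPM, CDC6 was at 19.5 and 25.3 with DMSO, 16.3 and 22.0 with UCI-1001 and 27.3 and 12.9 with UCI-1014, so the groups overlapped. Its UCI-1014 call was lost with all 12 libraries in a single fit, and the length offset did not test it. Within the ring, MCM5 rose by 0.26, while MCM3 and MCM4 fell by 0.16 and 0.18 on the log2 scale. MCM4 was at 300.5 and 310 CPM with DMSO, at 284 and 291 CPM with UCI-1001 and at 265 and 272 CPM with UCI-1014. MCM3 was at 292 and 293 CPM with DMSO and at 261 and 261 CPM with UCI-1014. The origin subunits ORC2 and ORC5 rose by 0.25 and 0.27 on the log2 scale, ORC5 from 20.1 and 20.0 CPM to 25.7 and 22.7 CPM. The ORC5 call was kept in 6 of 13 alternative fits.

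Among the genes placed here under helicase activation and firing, MCM8 alone was called with UCI-1014, and 0 were called with UCI-1001. CDC7, DBF4, CDC45, MCM10 and the GINS genes were thus called with neither compound. Among all genes tested, 47.1% were called with UCI-1014 and 15.7% with UCI-1001, and the difference of this role from all genes was not tested. MCM8, a helicase of the MCM family, was at 93.3 and 94.97 CPM with DMSO and at 106 and 103 CPM with UCI-1014. Its log2 fold change was 0.15 (SE 0.04), and the call was kept in 8 of 13 alternative fits. MCM10, which had the second largest fall with p53-WT, was at 102 and 94.3 CPM with DMSO, at 100.2 and 99.5 CPM with UCI-1001 and at 106 and 102 CPM with UCI-1014, and it passed neither test. In the checkpoint role, CLSPN was at 66.4 and 67.1 CPM with DMSO, at 55.2 and 55.9 CPM with UCI-1001 and at 47.8 and 48.0 CPM with UCI-1014. The 3 groups did not overlap, with log2 fold changes of -0.26 (SE 0.05, edgeR adjusted p = 0.0034) and -0.48 (SE 0.05, edgeR adjusted p = 5.1e-06). FAM111B, at 38.9 and 36.4 CPM with DMSO and 37.1 and 38.5 CPM with UCI-1001, was at 29.0 and 33.7 CPM with UCI-1014 (log2 fold change -0.26, SE 0.08). TOPBP1, at 112 and 113 CPM with DMSO, rose to 127 and 130.4 CPM with UCI-1014 (0.20, SE 0.04). The FAM111B call was kept in 8 of 13 alternative fits and the TOPBP1 call in 11 of 13.

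**Figure D5:**
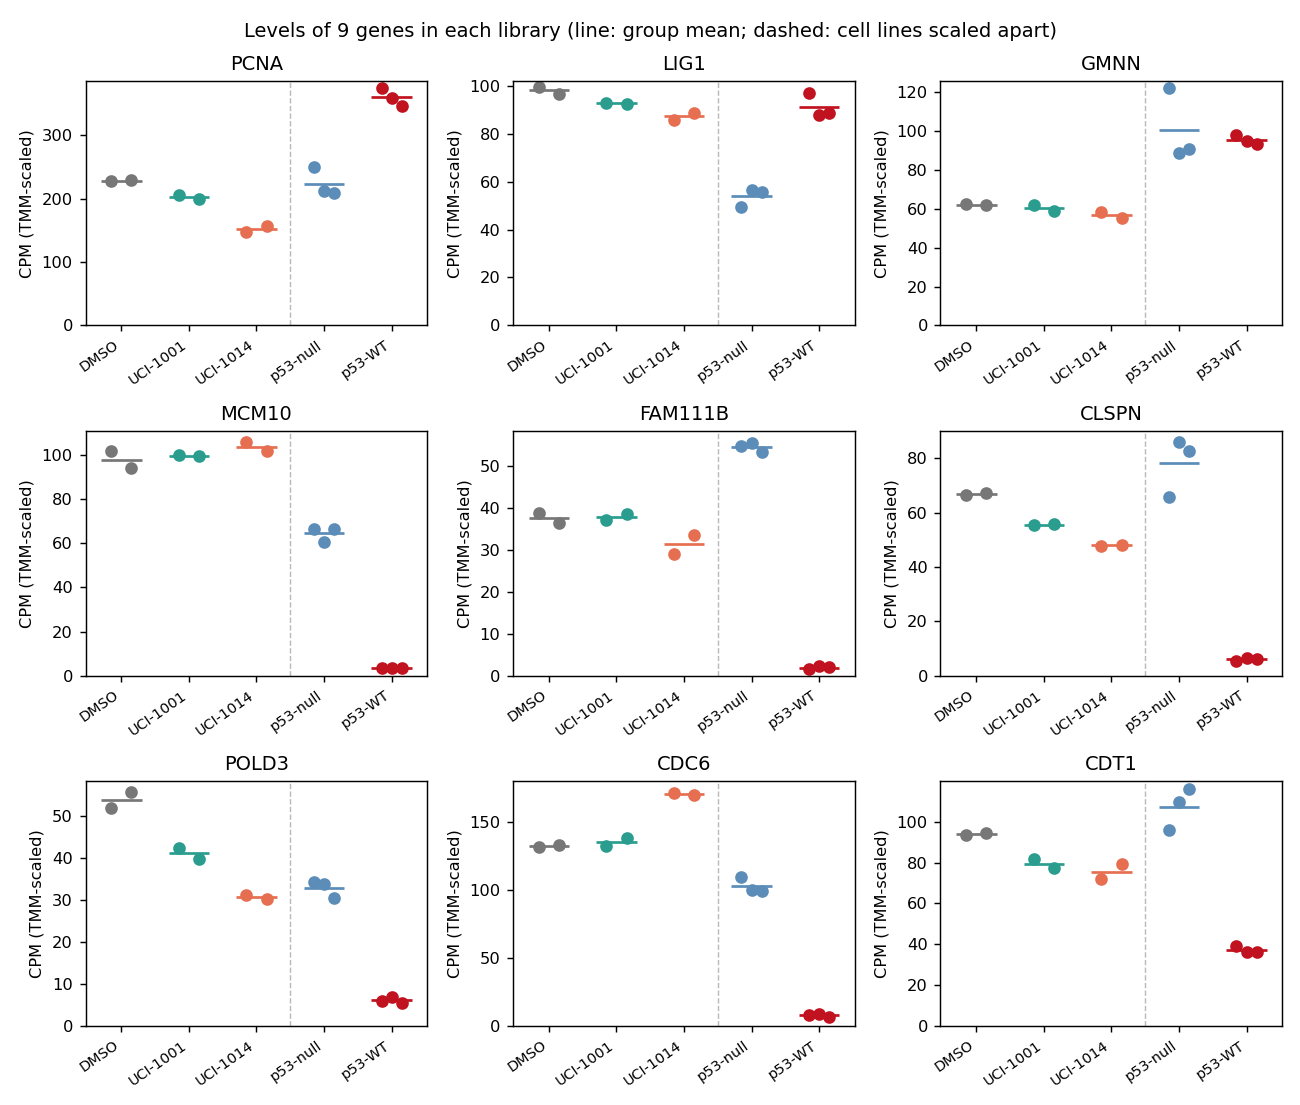
Each panel gives the TMM-scaled CPM of a gene in every library (points) with the group mean (line), for 5 groups in 2 cell lines scaled apart (dashed line). PCNA falls from 228 and 229 CPM to 148 and 157 CPM with UCI-1014 but stands at 346 to 374 CPM with p53-WT, and MCM10 and FAM111B are near 0 in p53-WT libraries.

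The compounds were also tested against each other, a single pair, at the same time but with no dose for UCI-1014 in the sources used here. Of the 51 genes, 6 were higher and 7 lower with UCI-1014, where 31.1% of all genes differed (17.1% higher and 13.9% lower). The largest differences were those of RPA3 (-0.45), POLD3 (-0.42), PCNA (-0.41) and CDC6 (0.34). CLSPN (-0.21), RPA1 (-0.18), FAM111B (-0.27) and GINS1 (-0.14) were lower with UCI-1014, and RFC1 (0.22), MCM5 (0.20), MCM8 (0.20), TOPBP1 (0.19) and CHAF1A (0.14) were higher. For the other 38 genes the difference lay between -0.16 and 0.08, with normal 95% intervals between -0.31 and 0.23 on the log2 scale. GINS1, called in neither comparison with DMSO, was at 124 and 121 CPM with UCI-1001 and at 109 and 113 CPM with UCI-1014, and its difference kept the threshold in 3 of 14 alternatives. With total counts in place of TMM factors, 1 gene was higher and 23 were lower, and with all 12 libraries in a single fit 2 genes, POLD3 and PCNA, were called.

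The calls of p53-WT and UCI-1014 are given side by side. Of the 47 genes lower with p53-WT, 11 were lower with UCI-1014, 9 were higher and 27 were not called, and of the 2 genes higher with p53-WT both were lower with UCI-1014. Over all genes tested, 23.4% were lower and 23.7% higher with UCI-1014, so these counts lie near the background. GMNN and GINS4 were called in neither comparison. Of the 5 genes called with UCI-1001, 4 were called with UCI-1014 in the same direction, and 18 genes were called with UCI-1014 alone. Among all genes tested, 47.1% were called with UCI-1014, and both comparisons use the same DMSO libraries. The matching overlap over all genes was not counted, so the 4 genes are not read as a trait of this set. The number of genes that changed by over 0.5 on the log2 scale was 2 with UCI-1014 (POLD3 and PCNA) and 0 with UCI-1001. The share of all genes past this size was not counted, so these numbers are not set against a background.

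Further genes of the same processes were read from lists chosen by function. Of 42 other replication genes, 34 fell and 3 rose with p53-WT, where 33% and 33.5% of all genes did. The histone chaperone ASF1B (-3.41), FBXO5 (-3.19), an inhibitor of the anaphase-promoting complex, and UHRF1 (-3.18), which reads hemimethylated DNA, fell most, while ORC4 (1.56), DDB1 (0.92), the adaptor of the ligase that holds DTL, and POLD4 (0.85) rose. ORC4 thus stood against the other ORC subunits, at 62.0 ± 6.89 CPM in p53-null and 183 ± 34.5 CPM in p53-WT libraries (SD, n = 3). With UCI-1001, where 15.7% of all genes were called, 2 of the 42 rose (ASF1A 0.27, CHEK1 0.22) and 3 fell (ATRIP -0.36, ATAD5 -0.26, POLE3 -0.20). With UCI-1014, where 47.1% of all genes were called, 8 rose, led by ASF1A (0.61), ORC4 (0.49) and MTBP (0.34), and 16 fell, led by ETAA1 (-0.79), ATRIP (-0.51) and SKP2 (-0.50). Between the compounds, where 31.1% of all genes differed, 7 were higher and 9 lower with UCI-1014. The shares of the 42 called were 11.9% with UCI-1001, 57.1% with UCI-1014 and 38.1% between the compounds, and their difference from all genes was not tested.

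Of 10 genes of nucleotide supply, 7 fell and 3 rose with p53-WT, where 33% and 33.5% of all genes did. The subunits of ribonucleotide reductase were split. RRM2, its S phase subunit, fell by 3.24, RRM1 rose by 0.35, and RRM2B, the subunit known as a p53 target, rose by 2.87 on the log2 scale, from 59.6 ± 5.50 to 436 ± 86.3 CPM (SD, n = 3). With UCI-1001, where 15.7% of all genes were called, RRM2 alone was called, at a log2 fold change of -0.15. With UCI-1014, where 47.1% of all genes were called, 5 of the 10 fell and 1 rose. RRM2 (-0.33), DTYMK (-0.29), TYMS (-0.23) and DUT (-0.20) were among those that fell, and RRM2B (0.32) rose. The difference of these shares from all genes was not tested.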

How the data were processed

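RNA-seq of 12 libraries of established cell lines was used. The authors quantified reads against GRCh38 with kallisto 0.48.0, summed the estimated counts of transcripts of an Ensembl gene and deposited whole-number gene counts, without normalization. For each library, the authors deposited TPM and expected (estimated) counts per transcript. The submitters' notes name DESeq2 1.38.3. Columns and library files were matched to samples by their labels.

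Counts were summed by symbol (40295 rows to 36486 genes, of which 8043 rows without a symbol and 29 with a date-like symbol were kept by identifier) and tested with edgeR 4.0.16 in R 4.3.3 (TMM factors, filterByExpr, glmQLFit, glmQLFTest, Benjamini-Hochberg), with a fit per cell line over 14275 genes (Saos-2) and 14177 genes (TOV-112D). A gene was called at an adjusted p under 0.05. SE is the log2 fold change divided by the square root of F. The test was tried on simulated counts with known changes. TPM was used for levels between genes, with their means and medians per group, and for levels of CDC6 between libraries. TPM was not TMM-scaled. Python 3.11.15 with pandas 2.3.3 and matplotlib 3.10.9 did the rest. Coordinates are GENCODE 44. Promoters are RefSeq entries, from which windows overlapping annotated exons by over 10 bases were not printed, and the exon bases of shorter overlaps were cut.

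The 51 genes, the roles and the other lists were chosen with earlier results of these data known. In each comparison and role, the 2 largest falls and rises past the threshold, and genes against the majority of a role, were given per library. Among the members, 26 share exon bases with another gene, 8 of them over 10%, and the transcript sums of 10 members differ from the deposited count by over 1 count. Replicate numbers are shared between groups, but same-numbered Saos-2 libraries correlated in their deviations by 0.139, 0.0922 and 0.0749, so no pairing was used. Depth differs little between libraries, and intervals cover the fitted spread only. The results of some genes of the marker, label check and function lists are not reported here.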

Additional observations from a re-analysis of the deposited data

How the results depend on the processing

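All 49 calls with p53-WT held under every alternative that tested the genes (39 of 41 with the length offset, which tested fewer genes). The direction of no called gene flipped in any comparison. Calls with the compounds depended on the fit: of 22 calls with UCI-1014, 5 held in every alternative that tested them (CDT1, CLSPN, MCM4, PCNA and POLD3), of 13 between the compounds 2 (PCNA and POLD3), and of 5 with UCI-1001 0. With UCI-1014, MCM4 was tested in 11 alternatives, without the length offset, and CDT1, CLSPN, PCNA and POLD3 in 13. With all 12 libraries in a single fit, which shares the spread of both lines, the counts were 0 for UCI-1001, 5 for UCI-1014 and 2 between the compounds. With an offset for effective length, over 41 genes, they were 1, 11 and 5, against 5, 16 and 11 on those genes without it, a fit added after seeing the data. Total counts in place of TMM factors gave 24 between the compounds. DESeq2 gave 4, 15 and 9 and no filter on low counts 6, 22 and 12. Leaving out a replicate gave 1 to 5 for UCI-1001, 13 to 20 for UCI-1014, 9 to 12 between the compounds and 49 to 49 with p53-WT. The cause of these shifts was not tested.

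With the replicate block the counts were 49 with p53-WT, 4 for UCI-1001, 22 for UCI-1014 and 11 between the compounds. The numbers only name libraries, and not every library correlated best with its own number. Same-numbered UCI-1001 and UCI-1014 libraries correlated by -0.164, and the crossed pairing gave 14 calls.

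GMNN and GINS4, which were not called, changed sign. GMNN was 0.0649 with the length offset, 0.0749 without replicate 1 of both Saos-2 groups, and between -0.1505 and 0.0844 when a replicate was left out, the latter without p53-null replicate 1. GINS4 was 0.0404 and 0.0239 under the first 2 of these settings, and between -0.0686 and 0.0545 when a replicate was left out, with 0.0225 without p53-null replicate 2 and 0.0545 without p53-WT replicate 1. With 2 libraries a group, the TOV-112D tests rest on few residual degrees of freedom.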
